A study of Mus musculus with 15 samples.

Results

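Myotubularin (*Mtm1*) and its relatives form a family of phosphoinositide phosphatases, and 10 of its genes were followed here, namely *Mtm1*, *Mtmr1*, *Mtmr2*, *Mtmr3*, *Mtmr4*, *Mtmr6*, *Mtmr9*, *Mtmr10*, *Mtmr12* and *Mtmr14*. They were taken by symbol from the 30672 Ensembl genes of a raw count table of tibialis anterior muscle. All 10 passed the filter on low counts, which kept 15533 genes. The muscles came from 15 male 129Pas mice, all 7 weeks old. The mice were untreated wild type (WT, n = 4), wild type given tamoxifen (WT + TAM, n = 4), untreated Mtm1-/y (n = 4) and Mtm1-/y given tamoxifen (Mtm1-/y + TAM, n = 3). Mtm1-/y males carry a disrupted copy of the X-linked *Mtm1* gene as their only copy, and the sources used here do not give how the allele was made. Tamoxifen is a ligand that modulates oestrogen receptors, and its dose and duration are likewise not given. The 9 members other than *Mtm1* are called relatives here. The comparisons asked whether the transcript of any of them was higher where that of *Mtm1* was lost, and whether tamoxifen altered the answer.

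Total counts were 18042558 to 45823277 per library, and the 10 members had between 70 counts (*Mtm1*, in an Mtm1-/y + TAM mouse) and 5030 counts (*Mtmr3*, in a WT + TAM mouse). Fast-fibre genes summed to 163500 to 277300 CPM (read counts scaled to a common library size) in each mouse, against 38.4 to 1170 CPM for slow-fibre genes. No gene of either list was at 0. Both ends of the slow-fibre range were in WT + TAM mice. The highest sums elsewhere were 64 CPM in WT, 121 in Mtm1-/y and 227 in Mtm1-/y + TAM mice. Replicate 1 of Mtm1-/y and replicate 1 of WT + TAM stood apart from the rest on the second and the third principal component, with scores of -69.1 and -73.1. For the 10 members, values that moved most without them are given both ways beside the result. Values of other named genes are given with all mice only. Nothing in the labels names a litter, batch or culture of the samples, so the adjusted p values measure the spread between these mice only.

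Myotubularins remove the phosphate at the D3 position of the lipids PI3P and PI(3,5)P2, which mark endosomes and steer membrane traffic and autophagy. Active members carry a loop in which a cysteine attacks the phosphate and an arginine holds it, whereas other members have lost these residues and serve as partners of active ones. Loss of *MTM1* in boys causes X-linked myotubular myopathy, a severe congenital disease of skeletal muscle in which fibres have misplaced nuclei and disordered triads.

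The coding stretch of this loop is shown for each member because it separates the members that keep the catalytic residues from those that do not. Sequences are those of coding transcripts in GENCODE release M21 on GRCm38, 39 bases each, on the coding strand. Capitals mark the codon at the position of the catalytic cysteine and the codon at the position of the arginine.
Mtm1: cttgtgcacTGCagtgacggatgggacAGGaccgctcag
Mtmr1: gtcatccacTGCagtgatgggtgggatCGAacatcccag
Mtmr2: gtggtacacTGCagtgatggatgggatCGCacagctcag
Mtmr3: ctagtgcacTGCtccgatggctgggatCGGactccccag
Mtmr4: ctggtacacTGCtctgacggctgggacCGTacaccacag
Mtmr6: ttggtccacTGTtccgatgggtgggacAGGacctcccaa
Mtmr14: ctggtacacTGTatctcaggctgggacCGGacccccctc
Mtmr9: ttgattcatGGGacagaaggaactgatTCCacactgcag
Mtmr10: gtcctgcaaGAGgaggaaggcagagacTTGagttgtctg
Mtmr12: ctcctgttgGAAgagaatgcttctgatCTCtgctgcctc
The first 7 have a cysteine codon (TGC or TGT) and an arginine codon at the marked places, and the last 3 have neither. The places were found by aligning each protein to that of *Mtm1*, except for *Mtmr14*. *Mtmr14* was placed by a search for the loop that required both residues, so their presence there was set by the search. *Mtmr2* differed from *Mtm1* at 8 of the 39 bases, *Mtmr4* at 10, *Mtmr3* at 11, *Mtmr1* and *Mtmr6* at 12 each and *Mtmr14* at 14. The members without the cysteine codon differed more, *Mtmr9* and *Mtmr10* at 21 bases each and *Mtmr12* at 28. The stretch of *Mtm1* lies at chrX:71299628-71299666 in exon 11 of 15 of the transcript used.

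In WT muscle the members spanned a wide range of levels, and *Mtm1* was among the least abundant. Per kilobase (kb) of annotated exon, *Mtmr6* was highest at 17.5 CPM per kb, followed by *Mtmr3*, which carries a lipid-binding FYVE domain, at 13.4. *Mtmr14*, also called Jumpy, followed at 7.05 and *Mtmr1* at 6.73, and their ranges over the 4 mice overlapped. *Mtmr2* at 3.76, *Mtmr10* at 3.31, *Mtmr9* at 3.13 and *Mtmr4* at 2.90 formed a middle group in which each overlapped the next. *Mtm1* at 1.09 and *Mtmr12* at 1.08 were lowest and overlapped as well. The place of *Mtm1* depends on the length used, since its annotated exons join to 13.9 kb while its longest transcript has 4.11 kb. By the longest transcript it measured 3.71 CPM per kb and stood at place 8 of 10, above *Mtmr4* and *Mtmr12*.

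*Mtm1* (ENSMUSG00000031337, chrX:71210767-71315691 on the plus strand of GRCm38) served as the check of the genotype labels. It measured 15.2, 15.3, 14.9 and 15.6 CPM in WT mice and 13.5, 16.9, 17.0 and 17.7 CPM in WT + TAM mice. Mtm1-/y mice had 3.61, 3.63, 3.27 and 2.91 CPM, and Mtm1-/y + TAM mice had 3.71, 3.04 and 3.70 CPM. Every mutant mouse was below every wild-type mouse. The mean fell to 22.0% of WT, from 15.2 ± 0.29 to 3.36 ± 0.34 CPM (SD, n = 4 each). On the log2 scale it fell by 2.19 (SE 0.12, edgeR adjusted p 5.46e-08). Under tamoxifen it fell by 2.23 (SE 0.13, adjusted p 2.02e-07). The transcript was therefore reduced and not absent, with 70 to 147 counts in each mutant mouse. The counts are per gene, and from which exons those reads came was not analysed here.

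**Figure D1:**
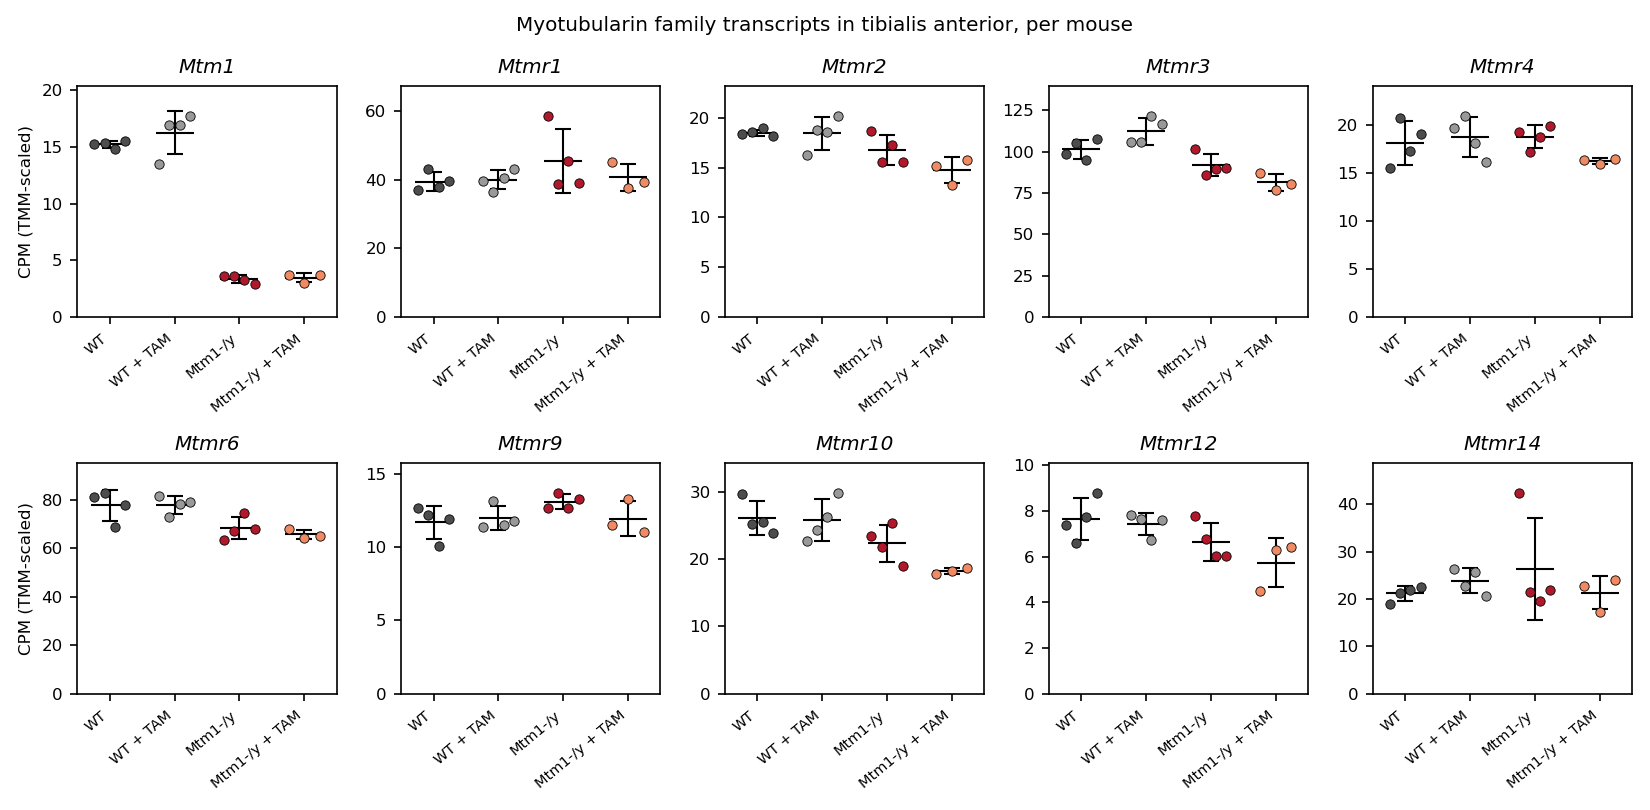
Level of each of the 10 members in every mouse, in CPM scaled by library size and TMM factor (y axis, linear, from 0), by group (x axis); points are mice, horizontal bars are means and error bars are SD (n = 4, 4, 4 and 3). *Mtm1* separates the genotypes completely, and *Mtmr14* and *Mtmr1* have their highest value in the same Mtm1-/y mouse (42.4 and 58.6 CPM). *Mtmr2*, *Mtmr3*, *Mtmr4*, *Mtmr6*, *Mtmr10* and *Mtmr12* have their lowest mean in Mtm1-/y + TAM mice.

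Of 4 family genes tested outside the 9 relatives, *Mtmr11* was called higher in Mtm1-/y than in WT mice (log2 fold change 0.97, edgeR adjusted p 0.0122). The others, *Mtmr7*, *Sbf1* and *Sbf2*, were not called. All 4 are described below with the other phosphoinositide genes. Without tamoxifen, none of the 9 relatives was called higher or lower between Mtm1-/y and WT mice in the edgeR fit. Of the 9 relatives, 0 had an adjusted p under 0.05 in either direction with edgeR, where 30.4% of all tested genes did (15.5% higher and 14.9% lower). DESeq2 and limma-voom also called 0 of the 9, and 1 (*Mtmr6*) had an unadjusted p under 0.05, against 41.6% of all genes. Log2 fold changes of the relatives ran from -0.22 to 0.32, with 4 above and 5 below 0 and a median of -0.14, beside a median of 0.0005 over all genes. Without Mtm1-/y replicate 1 they ran from -0.28 to 0.18, with 3 above and 6 below 0. In absolute terms their median was 0.19, against 0.32 for all genes.

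*Mtmr1* and *Mtmr2* encode the closest relatives of myotubularin, and both are active phosphatases. *Mtmr1* (ENSMUSG00000015214, chrX:71364760-71419196) stood at 37.2, 43.3, 37.8 and 39.5 CPM in the WT mice, against 58.6, 38.8, 45.4 and 38.9 CPM in the mutants. The groups overlapped, and the high mean of the mutants came from replicate 1. Its log2 difference was 0.21 (SE 0.12, 95% confidence interval -0.05 to 0.46, adjusted p 0.209), and it was 0.06 without that mouse (adjusted p 0.667). *Mtmr2*, whose human counterpart is mutated in a form of Charcot-Marie-Tooth neuropathy, stood at 18.3, 18.5, 18.9 and 18.1 CPM in the WT mice, against 18.7, 15.6, 17.3 and 15.6 CPM in the mutants. These also overlapped through mutant replicate 1 (log2 fold change -0.14, SE 0.09, interval -0.33 to 0.06, adjusted p 0.272).

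*Mtmr14*, an active phosphatase with variants described in centronuclear myopathy, gave the highest mean log2 fold change of the relatives, at 0.32 (SE 0.20, interval -0.11 to 0.75, adjusted p 0.249). WT mice had 18.9, 21.3, 21.9 and 22.6 CPM, and Mtm1-/y mice had 42.4, 21.5, 19.6 and 21.9 CPM. Apart from replicate 1, the mutants lay within the WT range. Without replicate 1 the log2 fold change was -0.01 (adjusted p 0.963). The upper end of the interval, 1.68-fold, was the highest for any relative, so a larger rise of any of the 9 lay outside the 95% interval in this comparison.

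The other active members, *Mtmr3*, *Mtmr4* and *Mtmr6*, showed no call. *Mtmr6*, the most abundant member, stood at 81.3, 82.9, 68.6 and 77.9 CPM in the WT mice, against 63.3, 67.3, 74.5 and 67.8 CPM in the mutants. Only WT replicate 3 fell among the mutants, and its log2 difference was -0.19 (SE 0.08, interval -0.36 to -0.02, adjusted p 0.085). *Mtmr6* passed the threshold, as lower, without WT replicate 3 (-0.24, adjusted p 0.0365) and with upper-quartile scaling of the libraries (adjusted p 0.0321). The difference for *Mtmr3* was -0.14 (SE 0.08, interval -0.32 to 0.03, adjusted p 0.201) and *Mtmr4*, the other FYVE-domain member, 0.05 (SE 0.10, interval -0.16 to 0.27, adjusted p 0.732).

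The 3 members without the cysteine codon were not called either. *Mtmr12* encodes a partner that binds and stabilises myotubularin, and *Mtmr9* encodes a partner of the *Mtmr6* product. *Mtmr12* stood at 7.38, 6.60, 7.75 and 8.80 CPM in the WT mice, against 7.79, 6.78, 6.04 and 6.02 CPM in the mutants, and the groups overlapped (log2 fold change -0.20, SE 0.14, interval -0.49 to 0.09, adjusted p 0.290). *Mtmr9* was the sole relative whose groups did not overlap, with 12.6, 12.2, 10.1 and 11.9 CPM in the WT mice, against 12.7, 13.7, 12.7 and 13.3 CPM in the mutants. Its log2 fold change was 0.16 (SE 0.10, interval -0.04 to 0.37, adjusted p 0.221), and 1 of 9 relatives without overlap compares with 30.5% of all genes. *Mtmr10* gave -0.22 (SE 0.11, interval -0.45 to 0.0036, adjusted p 0.126) and was called lower with upper-quartile scaling alone (adjusted p 0.0485).

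**Figure D2:**
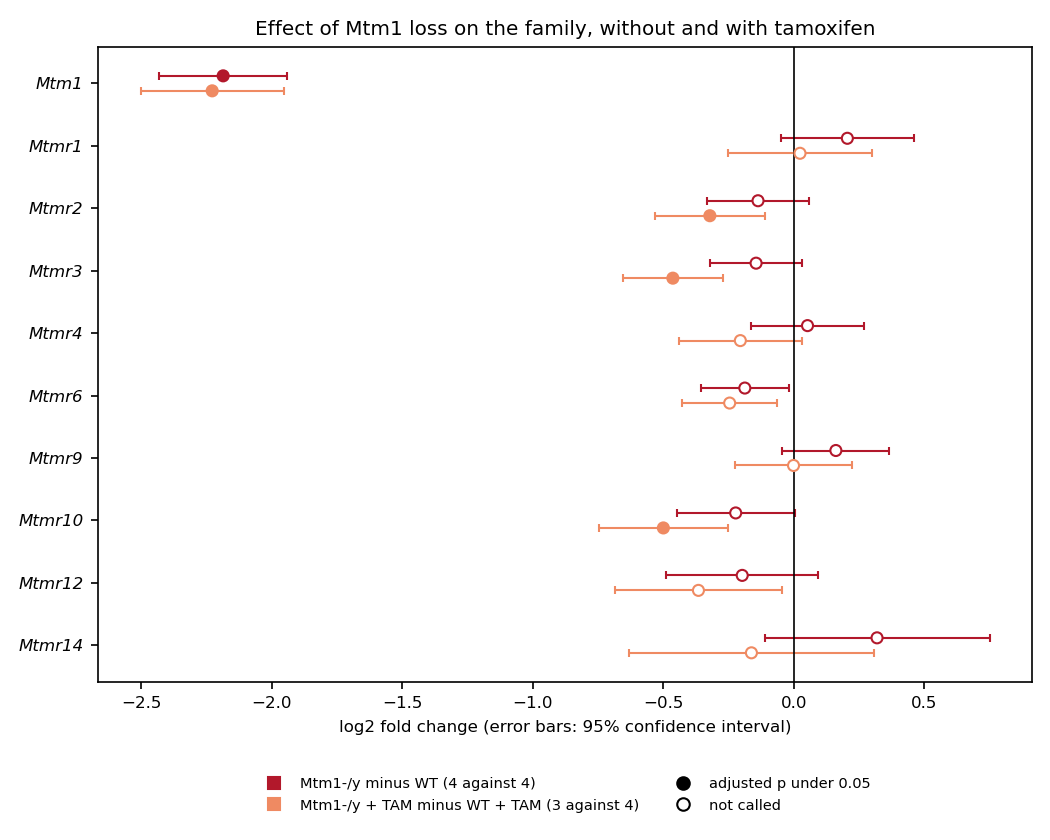
Log2 fold change of each member between mutant and wild-type mice (x axis), without tamoxifen (red, 4 against 4 mice) and with it (orange, 3 against 4 mice); bars are 95% confidence intervals from the edgeR fit, filled points have an adjusted p under 0.05 and the vertical line marks no difference. *Mtm1* lies at -2.19 and -2.23, none of the relatives shown is called higher, and *Mtmr2*, *Mtmr3* and *Mtmr10* are called lower with tamoxifen. *Mtmr11*, a family gene called higher in both comparisons, is not drawn.

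The summed level of the family shows the scale of the loss. The 10 members summed to 59.9 ± 2.66 CPM per kb in WT, 62.6 ± 1.78 in WT + TAM, 58.0 ± 5.80 in Mtm1-/y (SD, n = 4 each) and 51.8 ± 2.51 in Mtm1-/y + TAM mice (SD, n = 3). *Mtm1* itself supplied 1.83% of the WT sum and 0.417% of the Mtm1-/y sum. The 9 relatives went from a mean of 58.8 in WT to 57.7 in Mtm1-/y, a difference of -1.13 CPM per kb that was smaller than the SD of either group (2.64 and 5.79), while *Mtm1* fell by 0.854 CPM per kb. Without Mtm1-/y replicate 1 the relatives had a mean of 54.9 ± 1.72 (SD, n = 3), a difference of -3.94 from WT that was larger than the SD of either group. The size of this difference thus rests on that mouse. These values are per kb of joined exons. By longest transcript, with all mice, *Mtm1* measured 3.71 of a WT sum of 77.1 CPM per kb and fell by 2.89 in Mtm1-/y. The 9 relatives then differed by -1.60. The share of *Mtm1*, and whether it or the relatives fell more, thus depended on the length used.

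Split by the cysteine codon, the 6 active relatives summed to 51.3 ± 2.56 CPM per kb in WT and 50.4 ± 5.65 in Mtm1-/y mice, or 47.7 ± 1.61 without replicate 1 (SD, n = 3). The 3 others summed to 7.52 ± 0.49 and 7.28 ± 0.32 (SD, n = 4 each). Mtm1-/y replicate 1, at 66.4 for all 10 members, was above the other mutants at 53.8, 57.1 and 54.5 and above every WT mouse (56.4 to 62.6). The 3 Mtm1-/y + TAM mice, at 54.0, 49.0 and 52.3, were all below every WT and every WT + TAM mouse (60.2 to 64.4), as were Mtm1-/y replicates 2 and 4 without tamoxifen.

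**Figure D3:**
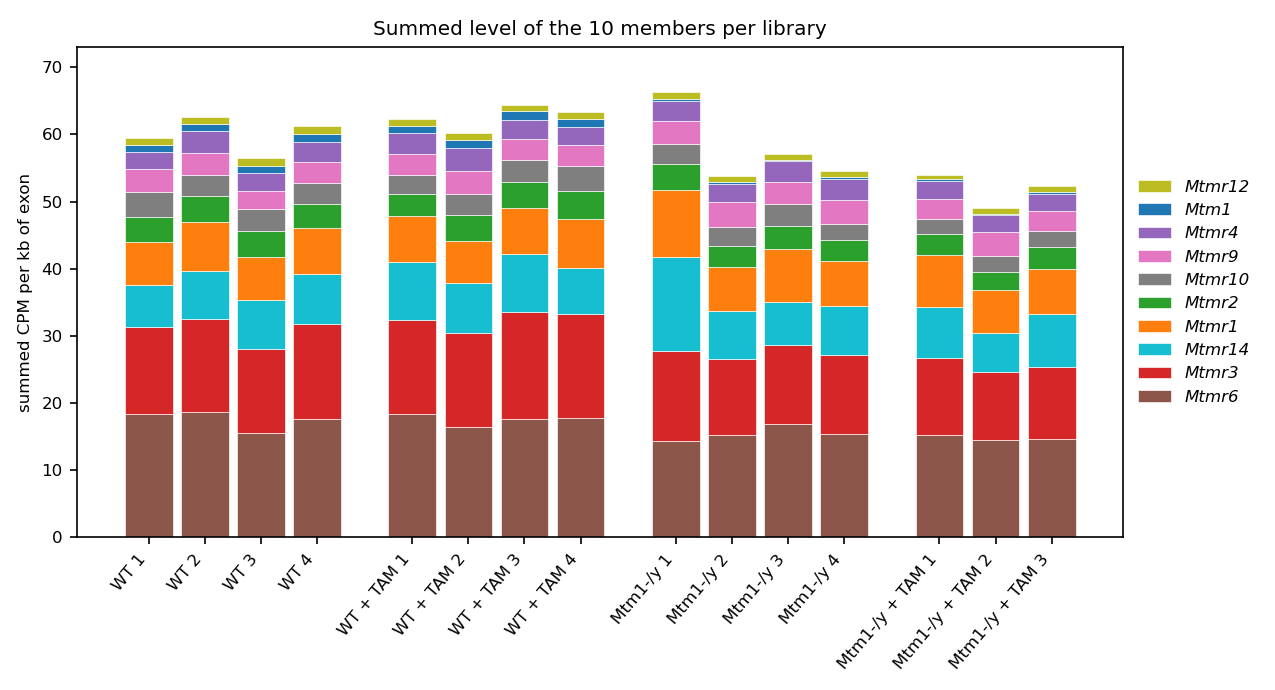
Level of the 10 members in each of the 15 mice, stacked, in CPM per kb of annotated exon (y axis, from 0); each bar is a mouse and each colour a gene, ordered from *Mtmr6* at the base to *Mtmr12* at the top. The *Mtm1* layer is thin in wild-type mice (1.83% of the WT sum, a share that depends on the length used). The Mtm1-/y + TAM bars are the shortest as a group (49.0 to 54.0).

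With tamoxifen given to both genotypes, *Mtmr11*, outside the 9 relatives, was again called higher in the mutant, as given below. *Mtmr7*, *Sbf1* and *Sbf2* were again not called. Of the 9 relatives, *Mtmr2*, *Mtmr3* and *Mtmr10* fell in the mutant and none rose. Between Mtm1-/y + TAM and WT + TAM mice these were 3 of the 9 relatives, where 20.1% of all genes were called (9.46% lower and 10.6% higher). The median log2 fold change of the 9 was -0.25, beside -0.02 over all genes. For 5 of the 9, *Mtmr2*, *Mtmr3*, *Mtmr6*, *Mtmr10* and *Mtmr12*, the groups did not overlap, against 31.6% of all genes, and the same 5 had an unadjusted p under 0.05, against 33.7%. In such bulk samples fewer cells of a type and less RNA per cell cannot be told apart.

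*Mtmr3* (ENSMUSG00000034354, chr11:4480868-4594863) had 105.5, 105.5, 121 and 117 CPM in WT + TAM and 87.0, 76.8 and 80.6 CPM in Mtm1-/y + TAM mice. All mutants were below all wild-type mice, and the gene fell by 0.46 on the log2 scale (SE 0.09, adjusted p 0.00264). *Mtmr10* (ENSMUSG00000030522, chr7:64287653-64340806), a member without the cysteine codon, had 22.6, 24.4, 26.2 and 29.9 CPM in WT + TAM and 17.7, 18.3 and 18.7 CPM in Mtm1-/y + TAM mice. The groups again did not overlap (-0.50, SE 0.12, adjusted p 0.0079). Genes annotated on the opposite strand share 4.88% (*Gm20457*) and 2.4% (*Gm45212*) of its exon bases, with 19 to 79 and 0 to 9 counts, and the strand setting of the authors' counting is not stated in the labels.

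*Mtmr2* (ENSMUSG00000031918, chr9:13748410-13806481) had 16.2, 18.8, 18.6 and 20.2 CPM in WT + TAM and 15.2, 13.3 and 15.8 CPM in Mtm1-/y + TAM mice. The groups lay close to each other without overlap, and the gene fell by 0.32 on the log2 scale (SE 0.10, adjusted p 0.0331). This call was the least secure of the 3. It was lost in 8 of 16 alternatives, 5 of them single mice left out (Mtm1-/y + TAM replicate 1 or 2, or WT + TAM replicate 2, 3 or 4), where its adjusted p reached 0.161. It was kept without WT + TAM replicate 1. *Mtmr3* and *Mtmr10* kept their calls in all 16, where their highest adjusted p values were 0.0215 and 0.034. The 16 do not include the requirement of a log2 fold change over 1, which none of the 3 genes met.

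The other 6 relatives were not called under tamoxifen. *Mtmr6* gave -0.25 (SE 0.09, adjusted p 0.0553) and *Mtmr12* -0.37 (SE 0.15, adjusted p 0.0978). *Mtmr6* had 81.7, 72.9, 78.2 and 78.9 CPM in WT + TAM and 67.8, 64.3 and 65.1 CPM in Mtm1-/y + TAM mice, without overlap. *Mtmr12* had 7.81, 7.65, 6.73 and 7.59 against 4.50, 6.28 and 6.42 CPM. *Mtmr4* gave -0.20, *Mtmr14* -0.16, *Mtmr9* -0.001 and *Mtmr1* 0.02, with adjusted p values of 0.209 to 0.995.

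Markers of other cells moved between the genotypes as well, beside the 15.5% higher and 14.9% lower of all genes without tamoxifen and the 10.6% and 9.46% with it. Of 5 endothelial markers, 5 were lower in Mtm1-/y than in WT mice and 3 in Mtm1-/y + TAM than in WT + TAM mice. Their summed level was 376 to 493 CPM in WT, 245 to 457 in WT + TAM, 191 to 264 in Mtm1-/y and 201 to 259 in Mtm1-/y + TAM mice. Mural-cell markers summed to 526 to 660, 420 to 582, 334 to 454 and 333 to 404 CPM in the same order, with 2 of 5 lower and 1 higher without tamoxifen and 4 lower and 1 higher with it. Of 8 fast-fibre genes, 2 were lower without tamoxifen and 1 with it, and their sums were 207700 to 277300 CPM in WT and 163500 to 223000 in Mtm1-/y mice. Of 7 macrophage markers, 1 was called higher without tamoxifen and 0 with it, a share no larger than that of all genes. No marker of these lists was at 0 in a whole group. The part of these cell types in the lower *Mtmr2*, *Mtmr3* and *Mtmr10* was not tested.

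Tamoxifen itself moved no member past the threshold in either genotype. Between WT + TAM and WT mice 0 of the 9 relatives were called, where 0.309% of all genes were (0.18% higher and 0.129% lower). None had an unadjusted p under 0.05 or groups without overlap, against 11.3% and 8.08% of all genes. Their log2 fold changes ran from -0.04 to 0.17, with a median of 0.02. *Mtm1* gave 0.09. Between Mtm1-/y + TAM and Mtm1-/y mice 0 of the 9 were called, where 0.0129% of all genes were, and DESeq2 and limma-voom likewise called 0 in both comparisons. All 9 values lay below 0, from -0.31 to -0.05, with a median of -0.19 beside -0.003 over all genes, and *Mtm1* gave 0.05. Without Mtm1-/y replicate 1, 8 of the 9 lay below 0, from -0.27 to 0.02, with a median of -0.12. *Mtmr14* then went from -0.31 to 0.02 and *Mtmr1* from -0.16 to -0.01. *Mtmr10* alone had an unadjusted p under 0.05 (log2 fold change -0.29, adjusted p 0.855), against 5.54% of all genes, and *Mtmr10* and *Mtmr4* were the 2 relatives without overlap, against 5.71% of all genes.

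The difference between the tamoxifen effects in the genotypes was tested as an interaction. It was called for 0 of the 15533 genes and so for none of the family (lowest adjusted p over all genes 0.176), while 1650 genes and 1 relative had an unadjusted p under 0.05. DESeq2 called 74 genes and limma-voom 0, and neither called a member. The 9 relatives had interaction values of -0.48 (*Mtmr14*) to -0.06 (*Mtmr6*), with a median of -0.18 beside -0.007 over all genes. *Mtmr3* had the relative's unadjusted p under 0.05, with -0.32 (SE 0.12, adjusted p 0.411). Without Mtm1-/y replicate 1, *Mtmr14* went to -0.15 and *Mtmr1* from -0.18 to -0.04, and the 9 values ran from -0.27 to -0.04. The lower *Mtmr2*, *Mtmr3* and *Mtmr10* under tamoxifen were thus not shown to differ from their genotype differences without it. The comparisons share groups, and their values for a gene are not independent.

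**Figure D4:**
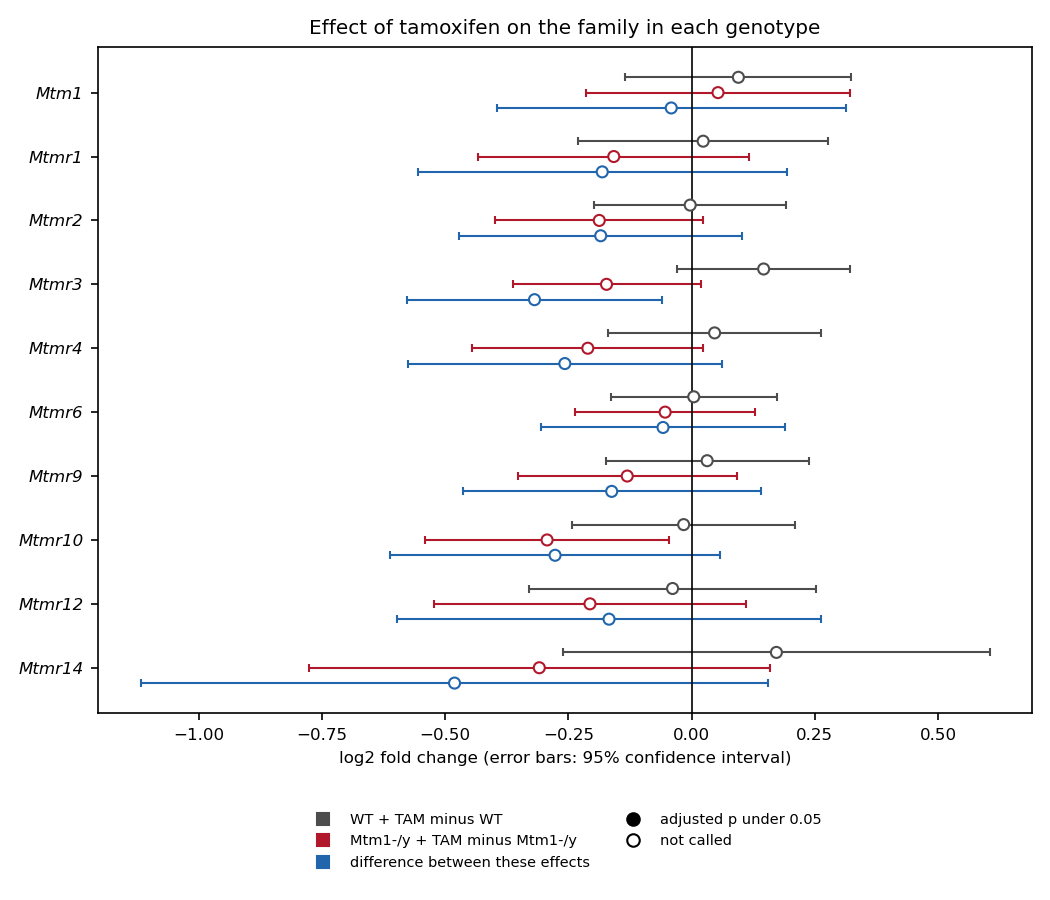
Log2 fold change of each member between tamoxifen-treated and untreated mice (x axis), in WT (grey), in Mtm1-/y (red), and the difference between these effects (blue); bars are 95% confidence intervals from the edgeR fit, open points are not called and the vertical line marks no difference. All points are open, and the red and blue points of the 9 relatives lie left of 0 (-0.31 to -0.05 and -0.48 to -0.06). Without Mtm1-/y replicate 1 the red point of *Mtmr14* would stand at 0.02.

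*Mtmr1* is also the neighbour of *Mtm1* on the X chromosome, 49069 bases away on the same strand. Within 500 kb of *Mtm1*, 5 other genes passed the filter on low counts. None was called between Mtm1-/y and WT mice, where 30.4% of all tested genes were. Besides *Mtmr1* these were *Mamld1* (log2 fold change -0.24, SE 0.22, adjusted p 0.429), *Cd99l2* (0.02, SE 0.10, adjusted p 0.88), *Hmgb3* (-0.19, SE 0.23, adjusted p 0.567) and *Gpr50*, which had 0 to 13 counts per mouse (-1.67, SE 0.95, adjusted p 0.196). Among the tested genes of this window *Mtm1* alone was called in this comparison, and so few genes say little about its neighbours.

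Across the 15 mice, the genes whose log2 CPM followed *Mtm1* most closely after centring were *Pax7*, *Car2* and *Ccdc85c*, with root mean square differences of 0.29, 0.29 and 0.32, where the median gene had 1.13. *Pax7* encodes the transcription factor that marks muscle satellite cells, and its means were 6.38 CPM in WT, 6.59 in WT + TAM, 1.17 in Mtm1-/y and 1.69 in Mtm1-/y + TAM mice. Of 4 satellite-cell markers, 2 (*Pax7* and *Chodl*) were lower in the mutants without tamoxifen and the same 2 with it, beside 14.9% and 9.46% of all genes. *Myf5* and *Cdh15* were not called in either comparison. The summed level of the 4 markers was 42.1 to 47.6, 49.6 to 59.2, 28.6 to 49.2 and 34.7 to 41.1 CPM over the same groups. *Car2*, a carbonic anhydrase gene, had 8.57, 8.16, 2.40 and 2.09 CPM in the same order. *Ccdc85c*, which encodes a coiled-coil protein, had 41.7, 51.9, 13.3 and 13.1 CPM. These genes were chosen for this pattern, so it was not tested.

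Of 30 other genes that act on phosphoinositides, 29 were tested, and 5 rose and 0 fell in Mtm1-/y against WT mice, beside 15.5% and 14.9% of all genes, with a median log2 fold change of 0.02. They came from each group of the list. *Mtmr11*, a further family gene whose product lacks the catalytic cysteine, measured 5.10 CPM in the WT mice, against 9.95 CPM in the mutants (log2 fold change 0.97, SE 0.26, adjusted p 0.0122). *Vac14*, the scaffold of the complex that makes PI(3,5)P2 from PI3P, measured 27.1 and 48.4 CPM (0.83, SE 0.13, adjusted p 0.000246). *Uvrag*, a subunit of a PI3P-making kinase complex, gave 0.50 (SE 0.17, adjusted p 0.0334). *Inpp5k*, a phosphatase gene of skeletal muscle, gave 0.46 (SE 0.14, adjusted p 0.023), and *Pip4p1*, a phosphatase gene of late endosomes, 0.43 (SE 0.14, adjusted p 0.0266). All 5 had a larger SD in Mtm1-/y than in WT mice, for *Inpp5k* 17.1 against 2.48 CPM. Whether these calls rest on Mtm1-/y replicate 1 was not tested.

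Under tamoxifen, 2 of the 29 genes rose and 2 fell between the genotypes, beside 10.6% and 9.46% of all genes, with a median of -0.01. *Mtmr11* (1.00, SE 0.28, adjusted p 0.0212) and *Vac14* (0.90, SE 0.13, adjusted p 0.000373) were again higher in the mutant. *Uvrag* (0.38), *Pip4p1* (0.41) and *Inpp5k* (0.11) were not called here. *Pik3c2a*, a class II kinase gene, gave -0.82 (SE 0.28, adjusted p 0.0492) and *Inpp5b*, a 5-phosphatase gene, -0.58 (SE 0.12, adjusted p 0.00461). *Sbf1* and *Sbf2*, family genes whose products pair with the *Mtmr2* product, were not called in either comparison (0.04 and 0.02 without tamoxifen, -0.18 and -0.22 with it). Nor was *Mtmr7*, which had 2 to 23 counts per mouse (-0.11 without tamoxifen and -0.23 with it). No gene of the list was called between treated and untreated mice of either genotype or in the interaction.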

How the data were processed

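Poly(A) RNA of tibialis anterior muscle was sequenced from TruSeq stranded libraries of 15 mice. The authors deposited raw read counts per Ensembl gene, without normalization. The submitters' processing notes list the builds GRCm38 and mm10 and the tools HTSeq 0.6.1p1, STAR 2.5.3a, Bowtie2 2.2.8 and cutadapt 1.10. The sources used here do not give the role of each tool, the annotation release or the strand setting. All 30672 identifiers matched GENCODE M21, the source of symbols, coordinates, exon lengths and coding sequences. Groups came from the labels alone, and all columns were used.

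Counts were fitted with edgeR 4.0.16 in R 4.3.3: filterByExpr (minimum count 10), TMM factors, 4 group means over 15 libraries, and the robust quasi-likelihood test with 11 residual degrees of freedom. A gene was called at a Benjamini-Hochberg adjusted p under 0.05 over all 15533 tested genes. CPM are TMM-scaled. Levels between genes are per kb of joined exons, which assumes that all annotated exons are transcribed. Nearest genes were ranked on log2 CPM with a prior count of 2. Intervals have a level of 95%.

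Genes named are the 10 members, tested genes within 500 kb of *Mtm1*, the 3 nearest in pattern to *Mtm1* and the called genes of the phosphoinositide list. *Mtmr7*, *Sbf1* and *Sbf2* are named as well and were chosen after their values were seen. The members and all lists were chosen with earlier results of these data known. Alternatives were RLE and upper-quartile factors, no filter and a stricter filter (50 counts in 3 libraries), DESeq2 1.42.0, limma-voom (limma 3.58.1), the replicate number as a block, single libraries or both replicate 1 libraries left out, fits of the compared groups alone, a log2 fold change over 1, and the longest transcript as length.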

Additional observations from a re-analysis of the deposited data

Results flagged for a closer look

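In Mtm1-/y replicate 1, *Mtmr14* measured 42.4 CPM, far from the other 3 Mtm1-/y mice at 19.6 to 21.9 CPM, and the gap took up 0.896 of the range of the group. It was the lone such library among 30 groups of 4 libraries checked over the 10 members, of which chance flags about 1 in 20. The same library stood apart on the second principal component and had the highest *Mtmr1* of all 15 mice (58.6 CPM).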

How the results depend on the processing

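Over the 10 members and 5 comparisons, 890 values under alternative settings were compared with the reported ones, and 835 kept their direction and side of the threshold, 8 lost a call, 6 gained a call and 41 changed sign, where the alternative values lay within 0.0562 of 0 on the log2 scale. The requirement of a log2 fold change over 1 is not among these settings and is given apart. *Mtm1* stayed called in both genotype comparisons throughout. The count of members called between Mtm1-/y and WT (1 as reported) was 3 with upper-quartile factors, which added *Mtmr10* (-0.27) and *Mtmr6* (-0.24), and 1 to 2 with single mice left out. Under tamoxifen it was 4 as reported, 1 when a log2 fold change over 1 was also required, and 3 to 4 with single mice left out. No alternative called any of the 9 relatives higher. *Mtmr6* under tamoxifen was called lower with DESeq2, upper-quartile factors or the stricter filter. The cause of these changes was not tested.

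The count of all genes called between Mtm1-/y and WT was 4727 as reported, 1536 with the fold requirement and 3693 to 4736 with single mice left out. Under tamoxifen it was 3121, 934 and 1656 to 3339, the lowest without Mtm1-/y + TAM replicate 2. Between Mtm1-/y + TAM and Mtm1-/y it was 2, 4 with DESeq2, 1 with no filter, 1 with the compared groups alone, 7 without both replicate 1 libraries and 0 to 2 with single mice left out. Between WT + TAM and WT it was 48, 298 with DESeq2, 347 without both replicate 1 libraries and 11 to 111 with single mice left out, the highest without WT + TAM replicate 1. For the interaction it was 0, 74 with DESeq2, 2 with no filter, 14 without both replicate 1 libraries and 0 to 7 with single mice left out. Upper-quartile factors moved the split of calls between Mtm1-/y and WT from 2407 higher and 2320 lower to 2081 and 2721.

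Signs changed for the following values. Without both replicate 1 libraries *Mtmr14* gave -0.0090 between the genotypes, against 0.32 as reported, and 0.019 for tamoxifen in mutants, against -0.31. With single mice left out these ran from -0.0094 to 0.46 and from -0.44 to 0.019, and the sign rested on Mtm1-/y replicate 1. *Mtm1* gave 0.0041 in the interaction with upper-quartile factors, and with single mice left out -0.12 to 0.051 there and -0.012 to 0.15 for tamoxifen in mutants. Between the genotypes under tamoxifen *Mtmr9* gave 0.0077 with limma-voom, 0.0046 with no filter and 0.0048 with the compared groups alone. With single mice left out it ran from -0.088 to 0.055 and *Mtmr1* from -0.056 to 0.075, and *Mtmr4* between the untreated genotypes from -0.018 to 0.12. For tamoxifen in WT, *Mtmr2* gave 0.0049 with DESeq2, 0.0039 with RLE factors, 0.00039 with the stricter filter and 0.054 without both replicate 1 libraries. *Mtmr6* gave -0.0049 with no filter, -0.010 with upper-quartile factors and -0.019 without both replicate 1 libraries, and *Mtmr10* 0.041 without them. With single mice left out, tamoxifen in WT gave -0.015 to 0.070 for *Mtmr1*, -0.049 to 0.054 for *Mtmr2*, -0.023 to 0.12 for *Mtmr4*, -0.051 to 0.036 for *Mtmr6*, -0.033 to 0.072 for *Mtmr9*, -0.095 to 0.053 for *Mtmr10* and -0.10 to 0.038 for *Mtmr12*.

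Summed over the 10 members by longest transcript, the levels were 77.1 in WT, 80.5 in WT + TAM, 72.6 in Mtm1-/y and 64.9 CPM per kb in Mtm1-/y + TAM mice. Summed by joined exons with single mice left out, a check added after the data were seen, they were 59.1 to 61.1, 62.0 to 63.4, 55.1 to 59.3 and 50.7 to 53.2 in the same order. Of 21 pairs of libraries with the same replicate number, 6 had deviations correlated over 0.1 (median -0.004, highest 0.31). Of 63 pairs with different numbers, 10 did (median -0.013, highest 0.21). Only 5 of 15 libraries correlated best with their own number. The numbers were not taken as pairs in the reported fit. With the replicate block, 4473, 2792, 2, 33 and 0 genes were called in the 5 comparisons, and *Mtmr2* under tamoxifen was not called (-0.32, adjusted p 0.058). With 3 or 4 mice a group, a relative's 95% interval reached up to 1.68-fold.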
